A study of Oryctolagus cuniculus with 12 samples.

Results

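Transcripts of the interleukin-1 family and of other inflammatory cytokines were followed in rabbit ear skin and scar tissue. The genes were chosen by symbol, as the rows of the expression table named IL1A, IL1B, IL1RN, IL36RN, IL6, TNF, CXCL8, CCL2, CCL20 or PTGS2. Of these 10 symbols, 8 were found among the 29587 genes of the table, and all 8 were among the 13287 genes with a mean of at least 1 FPKM (fragments per kilobase of gene length, scaled to library size) that entered the tests. IL36RN and IL6 carry no symbol in the table and were recognised only by their protein names (ENSOCUG00000010998 and ENSOCUG00000027471), so their values are given beside the others and stay out of every count.

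The samples were 12 bulk RNA libraries of full-thickness ear tissue from wild-type female rabbits of 10 to 12 weeks, 3 rabbits in each of 4 groups, all harvested on day 43 by the calendar of the wounded animals. Normal skin (NS) was neither wounded nor treated. The hypertrophic scar group (HS) carried scars grown from 7 mm round wounds on the ventral ear and received no treatment, whereas animals given drug-loaded MNs or injected 5-Fu carried such scars and were treated on days 22, 29 and 36 after wounding. Drug-loaded MNs are separating microneedle patches (1 patch per lesion) that leave gelatin-based tips in the scar. The tips carry a prodrug of 5-fluorouracil acetic acid, whereas 5-Fu injection delivered 120 μg of free 5-fluorouracil in 0.1 mL per lesion. Scars treated with microneedles without drug were not analysed here, so the effect of the needles alone cannot be told apart from that of the drug, and the scar groups were all sampled 1 week after the last treatment day.

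Interleukin-1α and interleukin-1β signal through the type 1 interleukin-1 receptor and activate NF-κB, which in turn switches on chemokines, prostaglandin synthesis and its own inhibitors. The receptor antagonist encoded by IL1RN occupies the same receptor without signalling, and the IL36RN product does so at the receptor for interleukin-36. In skin, keratinocytes store interleukin-1α and release it on injury, while interleukin-1β and TNF come mainly from myeloid cells, and CXCL8, CCL2 and CCL20 call in neutrophils, monocytes, and lymphocytes and Langerhans cell precursors in turn.

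The libraries held 10521472 to 14043667 reads on genes, so that a single read on a 1 kb gene stood for 0.0768 to 0.0972 FPKM. Fibroblast markers separated scar from normal skin, with a summed FPKM of 2481 to 3458 in NS and 37549 to 48817 in HS. They lay between these, at 18974 to 27239, after drug-loaded MNs, and at 5076, 26829 and 6764 after 5-Fu injection, where replicate 2 stood apart. Keratinocyte markers were detected in every sample. Several libraries stood apart within their groups. NS replicate 2 had a summed FPKM of 2019 over 9 interferon-response genes against 660 and 149 in the other NS samples, and the 5-Fu injection sample labelled replicate 1 had 1103 over 5 B and plasma cell markers against 63.1 and 79.2 in the other samples of its group. Neutrophil markers, mostly S100A12, ranged from 15.7 to 534 in NS and from 22.1 to 1218 after drug-loaded MNs. In bulk tissue, fewer cells of a type and less RNA per cell cannot be told apart.

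Of the 8 genes, 1 passed the test in any comparison. A gene is called here when limma gave an adjusted p below 0.05, with Benjamini-Hochberg adjustment over the 13287 genes, and a difference above 1 on the log2(FPKM + 1) scale in either direction, a scale that understates the change of low genes. CCL20 fell in HS and in drug-loaded MNs against NS, and no member was called between scar groups. None of the other 7 genes passed the test of a difference among the 4 groups, and NS held both the highest and the lowest sample for IL1B and CXCL8.

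**Figure D1:**
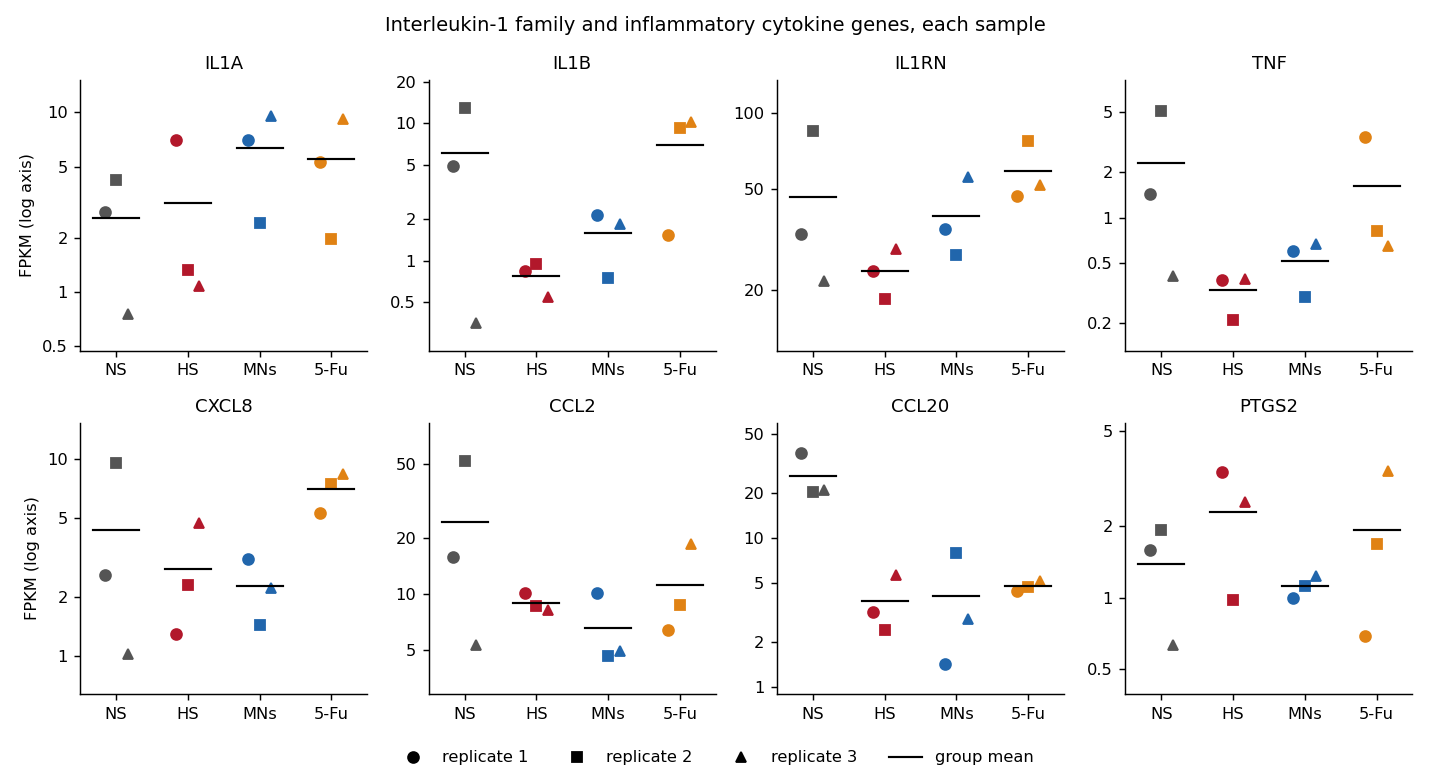
FPKM of the 8 genes in each of the 12 samples on log axes, with the replicate as the symbol and the group mean as a line. CCL20 is the gene whose 3 NS samples (20.3 to 37 FPKM) all lie above every scar sample (1.43 to 7.95 FPKM), while NS replicate 2 is the top sample for IL1B, IL1RN, TNF, CXCL8 and CCL2.

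The interleukin-1 genes of the set lie near each other on chromosome 2 in the coordinates of the table, whose genome build is not given in the sources used here. IL1A (ENSOCUG00000008771) is at chr2:97560400-97570279 and IL1B (ENSOCUG00000023958) at chr2:97614349-97618581, both on the minus strand. The row described as IL36RN, at chr2:97808565-97827174, and IL1RN (ENSOCUG00000004161), at chr2:97865546-97881097, are on the plus strand. TNF is on chromosome 12, CXCL8 on 15, CCL2 on 19, CCL20 on 7 and PTGS2 on 16.

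IL1A, the alarm cytokine kept in keratinocytes, was low and uneven in every group. Its FPKM was 2.80, 4.2 and 0.756 in NS, 6.99, 1.33 and 1.09 in HS, 6.98, 2.42 and 9.50 with drug-loaded MNs and 5.33, 1.98 and 9.15 with 5-Fu injection. All groups overlapped, with 1 high sample in HS and 2 in each treated group. The group means ran from 2.58 ± 1.73 FPKM (SD, n = 3) in NS to 6.30 ± 3.59 in drug-loaded MNs, and none of these neighbours differed beyond its spread (adjusted p = 0.51 for any group difference, limma moderated F test).

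IL1B, the myeloid agonist, had the widest range of the 8 genes as a ratio of the highest to the lowest sample, 36.8. FPKM in NS was 4.91, 13.0 and 0.353, in HS 0.844, 0.948 and 0.541, with drug-loaded MNs 2.14, 0.753 and 1.84, and with 5-Fu injection 1.52, 9.26 and 10.1. The HS samples were uniformly low, at 8 to 13 reads each, all 3 of the 5-Fu injection samples lay above all 3 of HS, and the NS samples lay on both sides. The fitted difference between 5-Fu injection and HS was 1.90 (SE 0.76, 95% interval 0.24 to 3.56), but limma gave an adjusted p of 0.145 and IL1B was not called. Between HS and NS it was -1.45 (SE 0.76, limma adjusted p = 0.283), and without NS replicate 3 IL1B was called there (-2.36, adjusted p = 0.0468).

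IL1RN, the antagonist, was the most abundant of the 8 genes. NS samples held 33.1, 84.2 and 21.6 FPKM, HS samples 23.8, 18.4 and 28.8, drug-loaded MN samples 34.7, 27.5 and 55.5, and 5-Fu injection samples 47.0, 77.4 and 51.6. HS had the lowest sample of all, and the 5-Fu injection samples were all above HS without overlap, while drug-loaded MNs overlapped every other group. The means were 23.7 ± 5.23 FPKM in HS and 58.7 ± 16.4 after 5-Fu injection (SD, n = 3), a difference of 1.26 on the log2 scale (SE 0.43, 95% interval 0.32 to 2.21). It missed the threshold (limma adjusted p = 0.101) except without NS replicate 2, where the adjusted p was 0.0444.

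Set against its agonists, the antagonist was in excess in all 12 samples. The ratio of IL1RN to the sum of IL1A and IL1B, all in FPKM and so per gene length, was 4.29, 4.90 and 19.5 in NS, 3.04, 8.07 and 17.7 in HS, 3.80, 8.66 and 4.89 with drug-loaded MNs, and 6.86, 6.88 and 2.67 with 5-Fu injection. The groups overlapped throughout. The ratios of 19.5 and 17.7 came from NS replicate 3 and HS replicate 3, where the summed agonists were lowest. Which agonist led differed as well: IL1A exceeded IL1B in all HS and drug-loaded MN samples, with ratios from 1.40 to 8.28, whereas the ratio was below 1 in 2 of 3 samples of both NS and 5-Fu injection.

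**Figure D2:**
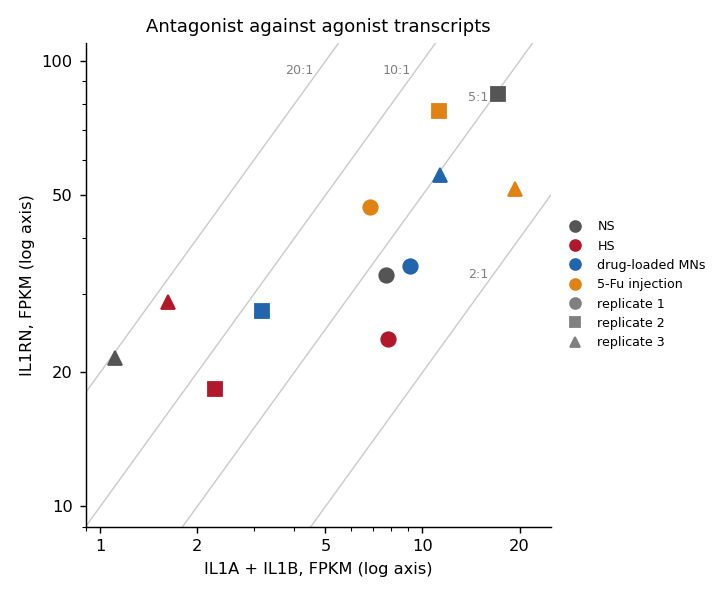
IL1RN against the sum of IL1A and IL1B in each sample, in FPKM on log axes, with colour for the group, symbol for the replicate and grey lines at constant ratios of 2, 5, 10 and 20. All samples lie above the line of ratio 2, from 2.67 in 5-Fu injection replicate 3 to 19.5 in NS replicate 3, and the groups intermix.

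The row described as the interleukin-36 receptor antagonist had 18.1, 7.79 and 24.9 FPKM in NS, 14.4, 13.3 and 14.9 in HS, 28.6, 42.9 and 25.5 with drug-loaded MNs, and 30.2, 16.4 and 6.22 with 5-Fu injection. The drug-loaded MN samples all lay above those of NS and of HS. The difference from HS was 1.10 (SE 0.49), with an unadjusted p under 0.05 and a limma adjusted p of 0.554. Keratinocyte markers were also higher, at a summed FPKM of 3775 to 8873 in drug-loaded MNs and 1378 to 2003 in HS. Within drug-loaded MNs, replicate 3 had the most of these markers and the lowest value of this row. After 5-Fu injection the markers were 2818 to 5450, also above HS, while the difference of this row from HS was 0.06. The part of the markers in these differences was not tested.

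TNF, a cytokine of macrophages and T cells, was close to the limit of detection in HS and with drug-loaded MNs. It read 1.43, 5.12 and 0.409 FPKM in NS, 0.389, 0.211 and 0.392 in HS, 0.599, 0.297 and 0.667 with drug-loaded MNs, and 3.41, 0.816 and 0.646 with 5-Fu injection. HS samples held 4 to 8 reads each and were below all NS and all 5-Fu injection samples, although the gap to the lowest NS sample was only from 0.392 to 0.409 FPKM. Neither difference was called: HS against NS was -1.05 (SE 0.50, limma adjusted p = 0.229), and 5-Fu injection against HS was 0.83 (SE 0.50, limma adjusted p = 0.313). The highest of the 5-Fu injection samples for TNF was replicate 1, the library with the most B and plasma cell and T cell markers (summed FPKM of 160 over 8 T and NK cell markers, against 21.9 and 26.2).

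The row described as interleukin-6, which drives the acute-phase response, held 1 to 67 reads. Its FPKM was 0.688, 2.96 and 0.152 in NS, 0.083, 0.236 and 0.657 in HS, 0.670, 0.295 and 0.746 with drug-loaded MNs, and 0.143, 0.608 and 4.96 with 5-Fu injection. All groups overlapped, and the top values belonged to NS replicate 2 and 5-Fu injection replicate 3.

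CXCL8, the neutrophil chemokine, was highest after 5-Fu injection except for 1 normal sample. FPKM was 2.56, 9.58 and 1.02 in NS, 1.30, 2.29 and 4.73 in HS, 3.11, 1.43 and 2.22 with drug-loaded MNs, and 5.33, 7.51 and 8.39 with 5-Fu injection. The 5-Fu injection samples were above all HS and all drug-loaded MN samples without overlap, while NS spanned the whole range. Their mean of 7.08 ± 1.57 FPKM compared with 2.77 ± 1.77 in HS and 2.25 ± 0.84 with drug-loaded MNs (SD, n = 3). The differences were 1.18 against HS (SE 0.53, limma adjusted p = 0.183) and, for drug-loaded MNs against 5-Fu injection, -1.32 (SE 0.53, limma adjusted p = 0.298), so neither was called. The summed neutrophil markers were 71.3 to 307 after 5-Fu injection and 35.5 to 774 in HS, with MMP8 at 0 in every sample.

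CCL2, which recruits monocytes, owed its NS mean to 1 sample. The values were 15.8, 52.2 and 5.32 FPKM in NS, 10.1, 8.58 and 8.17 in HS, 10.1, 4.62 and 4.94 with drug-loaded MNs, and 6.35, 8.72 and 18.5 with 5-Fu injection. The HS samples were close together, the NS and 5-Fu injection samples lay on both sides of them, and the drug-loaded MN samples lay within or below their range. No difference in CCL2 had an unadjusted p under 0.05, and summed macrophage markers were 215 to 446 in NS and 327 to 529 in HS.

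CCL20, the ligand of CCR6 made by the epidermis at rest and under interleukin-1 or interleukin-17, was the 1 member called in the main fit. NS samples held 37, 20.3 and 21.1 FPKM, HS samples 3.18, 2.42 and 5.61, drug-loaded MN samples 1.43, 7.95 and 2.87, and 5-Fu injection samples 4.40, 4.67 and 5.12. All 3 scar groups lay below all NS samples, and the scar groups overlapped with each other. The gene model is only 291 bases long, so these levels rest on 72 to 140 reads per sample in NS, 8 to 20 in HS, 5 to 28 in drug-loaded MNs and 14 to 18 in 5-Fu injection.

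Against NS, CCL20 fell by 2.52 on the log2 scale in HS (SE 0.42, 95% interval -3.45 to -1.59, limma adjusted p = 0.00598), from a mean of 26.1 ± 9.42 to 3.74 ± 1.67 FPKM (SD, n = 3), a ratio of means of 7.00. The same ratio was 7.83 for IL1B and 7.02 for TNF, which were not called and whose NS samples were more uneven. In drug-loaded MNs CCL20 fell by 2.58 (SE 0.42, limma adjusted p = 0.0232), with a mean of 4.08 ± 3.42 FPKM. In 5-Fu injection the difference was -2.19 (SE 0.42, limma adjusted p = 0.103) and was not called, with a mean of 4.73 ± 0.36 FPKM. These comparisons share the NS samples. Between scars, the intervals of the difference were -0.99 to 0.87 for drug-loaded MNs against HS and -0.60 to 1.26 for 5-Fu injection against HS, so differences within these limits could not be told from 0 with 3 rabbits a group. The call in HS held in all 22 alternative settings (adjusted p from 0.00278 to 0.0283). That in drug-loaded MNs was lost without NS replicate 1 (adjusted p = 0.0866), NS replicate 2 (0.0895), drug-loaded MNs replicate 1 (0.0798) or drug-loaded MNs replicate 3 (0.0993), and when only those 2 groups were fitted (0.0691). Keratinocyte markers had a summed FPKM of 2177 to 3813 in NS, 1378 to 2003 in HS and 3775 to 8873 in drug-loaded MNs. These markers were thus within or above the range of NS in the drug-loaded MN samples, and their part in the CCL20 differences was not tested.

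PTGS2, the inducible cyclooxygenase, was low throughout. Its FPKM was 1.59, 1.92 and 0.630 in NS, 3.37, 0.977 and 2.52 in HS, 1.00, 1.12 and 1.23 with drug-loaded MNs, and 0.691, 1.68 and 3.39 with 5-Fu injection. All groups overlapped, and the drug-loaded MN samples were the tightest, at 39 to 44 reads. The largest difference between group means was 0.56 on the log2 scale, drug-loaded MNs below HS, with a 95% interval of -1.41 to 0.28.

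For HS against NS, the comparison that asks what scarring changed, 1 of 8 genes was called, against 1.48% of all tested genes called lower and 5% called in either direction. In 6 of 8 genes the difference was negative, with a median of -0.79 beside -0.01 over all genes tested, and 2 genes (TNF and CCL20) had all HS samples below all NS samples, against 15.3% of all genes. The median rested in part on NS replicate 2. Without it, 5 of 8 differences were negative and their median was -0.12, and without NS replicate 3 it was -1.34 with CCL20 and IL1B called.

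For drug-loaded MNs against HS, which asks what the patch did to the scar, limma called 0 of 8 genes, against 0.00753% of all genes. None of the 8 had an unadjusted p under 0.05 (8.9% of all genes did), none had groups that did not overlap (18.9% of all genes), and limma-voom on recovered reads also called 0. The differences ran from -0.56 for PTGS2 to 0.96 for IL1A, with 4 positive, 4 negative and a median of 0.07. The intervals were wide, with 95% limits of -1.16 to 2.16 on the log2(FPKM + 1) scale for IL1B.

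For 5-Fu injection against HS, limma called 0 of 8 genes, as did limma-voom, where 2.29% of all genes were called and 0.512% called higher. Differences were positive for 7 of 8 genes, PTGS2 being the exception, with a median of 0.80 beside 0.02 over all genes. Several of the genes correlated within groups, as given below, so these signs are not independent of each other. The HS samples are also those of HS against NS above. IL1B, IL1RN, TNF and CXCL8 had all 5-Fu injection samples above all HS samples, which 13.9% of all genes did, and IL1B, IL1RN and CXCL8 had an unadjusted p under 0.05, which 26% of all genes did. Without 5-Fu injection replicate 2, the library with the most fibroblast markers of its group, 0 of the 8 had an unadjusted p under 0.05, and the median was 1.04; without replicate 3, 1 gene did. All 7 fibroblast markers were lower after 5-Fu injection than in HS, 3 of them called, and their part in the members' differences was not tested. Across the alternatives that kept all 8 genes, 6 to 8 differences were positive, and the median ran from 0.59 to 1.23. Rescaling to the total of reads brought the median of all genes from 0.02 to 0.13, and the members' differences relative to that median kept their signs.

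Directly between the treatments, drug-loaded MNs against 5-Fu injection, 0 of 8 genes were called by limma or limma-voom, as were 0% of all genes. The difference was negative for 7 of 8 genes, with IL1A the exception, and the median was -0.62. The 5-Fu injection samples are those of the comparison before, so these signs are not independent of that result. CXCL8 alone had all drug-loaded MN samples below all 5-Fu injection samples (8.42% of all genes) and an unadjusted p under 0.05 (15.1% of all genes). The compound, the doses and the release of the drug differed between these groups, and the values are therefore a comparison of the regimens as given.

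Against normal skin, CCL20 was the 1 gene called of 8 after drug-loaded MNs (0.0828% of all genes were called lower and 0.873% in all). After 5-Fu injection 0 of 8 were called by limma or limma-voom (0.00753% of all genes), and CCL20 had the 1 unadjusted p under 0.05 (14.9% of all genes). CCL20 was also the 1 member with all treated samples below all NS samples, in both comparisons, a pattern that 9.11% of all genes shared in the former and 9.16% in the latter. Over the 4 groups at once, limma's moderated F test passed CCL20 (adjusted p = 0.0182) and none of the other 7, whose adjusted p ran from 0.258 to 0.652. For all genes the F test passed 3.54%.

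**Figure D3:**
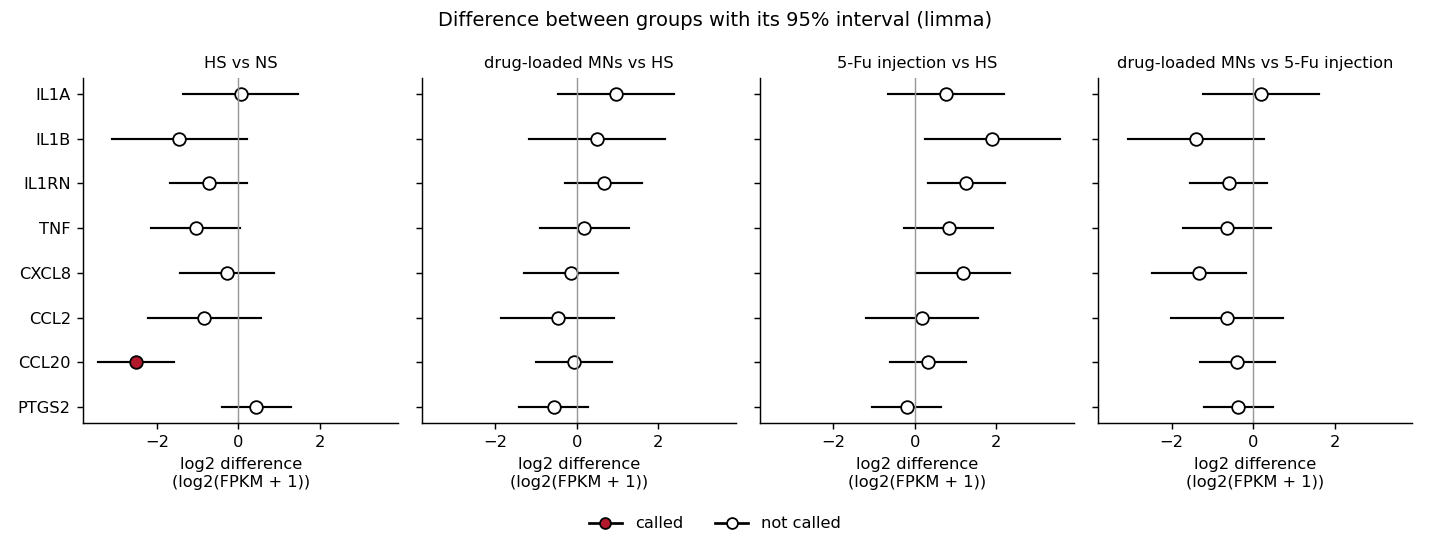
Difference of each gene between groups on the log2(FPKM + 1) scale, as points with 95% intervals from limma, filled where called. CCL20 in HS against NS (-2.52) is the only filled point of the 4 comparisons plotted, most points of 5-Fu injection against HS lie to the right of 0 and most of drug-loaded MNs against 5-Fu injection to the left.

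In NS and in 5-Fu injection, 1 library held the high values of several of the genes. No sample of HS or drug-loaded MNs was among the top 3 of the 12 in more than 2 genes. NS replicate 2 had the highest of all 12 values in 5 genes (IL1B, IL1RN, TNF, CXCL8 and CCL2), NS replicate 3 the lowest in 4 (IL1A, IL1B, CXCL8 and PTGS2), and 5-Fu injection replicate 3 was among the top 3 samples in 5. HS replicate 2 was among the bottom 3 in 5 genes. In NS replicate 2 the interferon-response genes were also at their highest of the series, and in NS replicate 3 neutrophil markers were at their lowest, 15.7 FPKM.

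**Figure D4:**
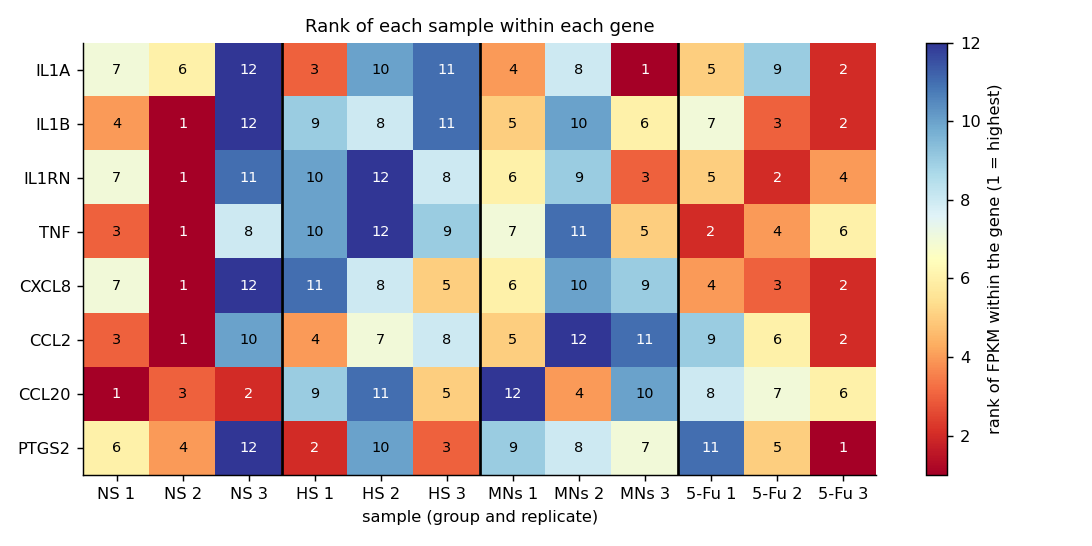
Rank of each sample among the 12 for each gene, from 1 (highest FPKM, red) to 12 (lowest, blue), with samples in columns by group and genes in rows. NS replicate 2 holds 5 first ranks and NS replicate 3 holds 4 last ranks, whereas for CCL20 the NS samples hold ranks 1 to 3.

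Described over the 12 samples, which share groups and libraries, Pearson's r of log2(FPKM + 1) was 0.82 between IL1B and IL1RN, 0.79 between IL1B and CXCL8, 0.79 between IL1RN and CXCL8, and 0.76 between IL1B and CCL2. With group means removed these were 0.75, 0.76, 0.80 and 0.89, and without NS replicate 2 they were 0.75, 0.73, 0.73 and 0.66. CCL20 stood apart from this set of genes, with r from -0.39 to 0.39 to each of the other 7, and IL1A had r of at most 0.43 to any other, although with group means removed its r was 0.58 to CCL2 and 0.56 to PTGS2.

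The 3 tested genes with a symbol that were most like each member, by the same r over 12 samples, differed from member to member. They were picked as the highest r among all such genes, so the size of r is no test of a link to the member. IL1A was closest to CSTB (0.89), an inhibitor of cysteine proteases, and to SGK1 and NOSTRIN. TNF was closest to TAPBP (0.95), which loads peptides onto class I molecules, EPSTI1 (0.95) and the interferon-response factor IRF1 (0.95), and these stayed at 0.90 without NS replicate 2. IL1RN was closest to MAD2L2, RHOG and PYCARD, an inflammasome adaptor (0.89 to 0.90), and CXCL8 to SRGN, a granule proteoglycan of leukocytes, C1orf162 and SNX10 (0.89 to 0.90). IL1B was closest to NUP85, CBR3 and TRAPPC14 (0.90 each), and CCL2 to BPI, a granule protein of neutrophils (0.93), PHF11 (0.87) and PPA1 (0.865), which dropped to 0.82, 0.69 and 0.70 without NS replicate 2. For CCL20 they were C1QL1 (0.92), UGT8 (0.90) and CDH20 (0.90), and for PTGS2 NUTF2, ATP5MC1 and NTPCR (0.88 to 0.90).

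The receptors and partners of these genes were read from lists of 158 pathway symbols, of which 132 were found and 110 tested. Among the receptors, IL1R1, the signalling receptor for both agonists, had group means from 9.60 ± 3.14 to 14.4 ± 3.30 FPKM and its partner IL1RAP from 1.09 ± 0.25 to 1.69 ± 0.50, with no difference called. IL1R2, the decoy receptor that binds agonist without signalling, varied far more. Its FPKM was 14.5, 11.5 and 16.7 in NS, 1.62, 5.90 and 8.56 in HS, 15.3, 22.4 and 33.4 with drug-loaded MNs, and 44.5, 15.9 and 13.1 with 5-Fu injection. The HS samples lay below every sample of the other 3 groups. Summed keratinocyte markers had the same order, at 1378 to 2003 FPKM in HS and 2177 to 8873 in the other groups, and their part was not tested.

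None of the IL1R2 differences was called. It was -1.44 for HS against NS (SE 0.52, limma adjusted p = 0.121), 2.08 for drug-loaded MNs against HS (SE 0.52, limma adjusted p = 0.248) and 1.99 for 5-Fu injection against HS (SE 0.52, limma adjusted p = 0.0534), comparisons that share the HS samples. The last became a call without 5-Fu injection replicate 2 (adjusted p = 0.0417), with a mean FPKM of at least 5 (0.0461) and after rescaling to the total of reads (0.0422), where HS against NS was called too (0.031).

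Of the other interleukin-1 family ligands and their binding proteins, 6 were found and 5 tested (IL18, IL33, IL36G, IL37 and IL18BP). For drug-loaded MNs against HS all 5 differences were positive, with a median of 0.78. Of these, 4 had groups that did not overlap (18.9% of all genes) and 3 had an unadjusted p under 0.05 (8.9% of all genes). Limma and limma-voom called 0. Keratinocyte markers were higher in the same comparison: 8 of 8 tested were positive, with a median of 1.31, 5 had groups that did not overlap and 0 were called. Their part in the ligand differences was not tested. IL36G, the epidermal interleukin-36 agonist, held 27.9, 30.3 and 29.1 FPKM with drug-loaded MNs, 11.1, 4.63 and 11.2 in NS, 19.8, 12.6 and 13.2 in HS and 19.95, 10.7 and 11.7 with 5-Fu injection. The drug-loaded MN samples were above every other sample. Against NS, IL36G rose by 1.68 with drug-loaded MNs (SE 0.31, limma adjusted p = 0.0361), a call that was lost without any single drug-loaded MN sample, NS replicate 1 or 2, or HS replicate 2 or 3 (adjusted p from 0.0588 to 0.136). It was lost too without the filter on low values (0.0745), after rescaling to the total of reads (0.0569) and with only the 2 groups fitted (0.0632). Keratinocyte markers were at 2177 to 3813 FPKM in NS and 3775 to 8873 in drug-loaded MNs, and their part in this rise was not tested. Against HS the difference was 0.92 (limma adjusted p = 0.419). IL18, which is activated by the inflammasome, held 20.01, 29.1 and 22.6 FPKM in HS, 37.3, 39.2 and 38.4 with drug-loaded MNs, and 45.1, 37.5 and 35.8 with 5-Fu injection. Both treated groups lay above HS, but the differences of 0.68 and 0.71 were under the limit of 1 (limma adjusted p = 0.239 and 0.0372). IL33 overlapped in all groups, from 47.3 to 217 FPKM, and IL36A was at or below 1.03 FPKM in every sample.

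The NF-κB units and inhibitors had differences of 1 sign in each of 2 comparisons. Between HS and NS, all 11 tested genes had negative differences, with a median of -0.54, and 7 had groups that did not overlap (15.3% of all genes lay lower without overlap). Of the 11, 1 (NFKBIZ) was called, where 1.48% of all genes were called lower. Between 5-Fu injection and HS, all 11 were positive, with a median of 0.67, and 7 did not overlap (13.9% of all genes lay higher without overlap). Here 1 (NFKBIA) was called, where 0.512% of all genes were called higher. Both comparisons use the same HS samples, so their opposite signs are not independent. For drug-loaded MNs against HS, 9 of 11 were positive with a median of 0.27 and 0 were called by limma or limma-voom. An unadjusted p under 0.05 was seen for 2 of them (8.9% of all genes). Under the alternatives that kept all genes, the count of negative differences stayed at 11 for HS against NS, and that of positive differences was 10 or 11 for 5-Fu injection against HS.

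NFKBIA, the inhibitor that NF-κB induces to shut itself off, held 74.9, 110 and 77.4 FPKM in NS, 49.2, 47.3 and 47.6 in HS, 58.4, 48.8 and 59.6 with drug-loaded MNs, and 108, 137 and 115 with 5-Fu injection. HS was the lowest and tightest group but for 1 drug-loaded MN sample within its range, and the 5-Fu injection samples were above all those of the other scar groups. NFKBIA rose by 1.30 after 5-Fu injection against HS (SE 0.16, limma adjusted p = 0.0134). The call was lost without HS replicate 1 (0.0543), 2 (0.0544) or 3 (0.0682) and with only the 2 groups fitted (0.0948). Against NS its difference in HS was -0.83 (SE 0.16, limma adjusted p = 0.0131), under the limit of 1, and drug-loaded MNs against 5-Fu injection gave -1.10 (limma adjusted p = 0.161).

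Over all pathway lists, HS against NS had 3 genes called higher and 4 called lower of 110, a share near the 5% of all genes called. The higher ones were TNFAIP6, a hyaluronan-binding protein induced by TNF and interleukin-1 (1.34), the prostaglandin F receptor PTGFR (2.08) and the fractalkine receptor CX3CR1 (1.21). The lower ones were the lymphoid chemokine CCL19 (-3.99), fractalkine CX3CL1 (-1.47), the constitutive cyclooxygenase PTGS1 (-1.56) and NFKBIZ, a nuclear partner of NF-κB (-1.01), with limma adjusted p from 0.00884 to 0.0493 over the 7. PTGFR and CX3CL1 were called in all 22 alternatives. CCL19, PTGS1, NFKBIZ and CX3CR1 lost the call without any single HS sample or without NS replicate 1 or 2, at adjusted p from 0.0513 to 0.175, and TNFAIP6 without NS replicate 1 or 2 or HS replicate 2 or 3, at 0.0621 to 0.106. Other single samples ended calls at adjusted p from 0.0505 to 0.103, namely any drug-loaded MN sample for PTGS1, NFKBIZ and CX3CR1, NS replicate 3 for PTGS1 and CX3CR1, 5-Fu injection replicate 1 for PTGS1 and NFKBIZ, and drug-loaded MNs replicate 2 for CCL19. With all samples kept, limma-voom ended the calls of CCL19, PTGS1, NFKBIZ and CX3CR1 (adjusted p from 0.051 to 0.16), as did leaving out the filter on low values (0.0669 to 0.0871). Fitting only the 2 groups ended those of CCL19 (0.0764) and NFKBIZ (0.0679), a pseudocount of 0.1 those of PTGS1 (0.0518) and CX3CR1 (0.0548), a constant prior variance those of PTGS1 (0.0548) and NFKBIZ (0.0516), and quantile normalization that of NFKBIZ (0.0539).

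For 5-Fu injection against HS, 3 of 110 pathway genes were called, where 2.29% of all genes were called and 0.512% called higher. All 3 were higher: NFKBIA, the receptor-proximal kinase IRAK2 (1.04, limma adjusted p = 0.0272) and lymphotoxin LTB (2.36, limma adjusted p = 0.0389). IRAK2 held 6.56, 6.26 and 5.54 FPKM in HS and 10.8, 14.1 and 16.5 after 5-Fu injection. Its call was lost without any single HS sample or without 5-Fu injection replicate 1 or 3 (adjusted p from 0.0632 to 0.0999), without the filter on low values (0.0513) and with only the 2 groups fitted (0.0967). LTB held 5.08, 7.55 and 9.71 FPKM in HS and 103, 31.5 and 21.4 after 5-Fu injection, with its top value in the library rich in lymphocyte markers. Its call was lost without any single HS sample, without 5-Fu injection replicate 1 or 3, NS replicate 1 or drug-loaded MNs replicate 2 (0.061 to 0.103), without the filter on low values (0.071), with only the 2 groups fitted (0.107) and with limma-voom (0.0603). Without 5-Fu injection replicate 2, 13 pathway genes were called.

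Among 14 tested chemokine ligands, 13 had negative differences for HS against NS, with a median of -1.41. Of these, 2 were called (CCL19 and CX3CL1), where 1.48% of all genes were called lower. For 5-Fu injection against HS, 13 ligands had positive differences with a median of 1.56. The HS samples are shared with the first comparison, so the opposite signs are not independent. After 5-Fu injection 0 ligands were called by limma or limma-voom (2.29% of all genes by limma), and 5 ligands had an unadjusted p under 0.05 (26% of all genes). T and NK cell markers moved with them, at a summed FPKM of 4.9 to 12.9 in HS and 21.9 to 160 after 5-Fu injection (7 of 7 tested positive), as did 7 of 9 interferon-response genes, at 109.5 to 159 and 244 to 512, and their part was not tested. For drug-loaded MNs against HS, 12 ligands were positive with a median of 0.69, 0 called by either tool and 0 with an unadjusted p under 0.05 (8.9% of all genes). The receptors of the 3 chemokine members differed in level. CCR6, the receptor of CCL20, reached at most 2.85 FPKM, in the 5-Fu injection sample with the most lymphocyte markers. CXCR2, a CXCL8 receptor, ranged from 0.547 to 7.30. CCR2, the receptor of CCL2, ranged from 0.844 to 21.9, its top being NS replicate 2.

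Of the remaining partners, TNFRSF1B, the leukocyte receptor for TNF, was 23.4 to 45.6 FPKM in HS and 63.7 to 94.7 after 5-Fu injection (difference 1.06, SE 0.36, limma adjusted p = 0.0982, not called), whereas TNFRSF1A, the widely expressed receptor, was 54.0 to 104 FPKM over all scar samples. IL6R was 2.35 to 5.14 FPKM in HS and 5.10 to 10.7 in NS, and the shared signal transducer IL6ST 29.1 to 71.9 in all samples. For prostaglandins, PTGES, the enzyme downstream of PTGS2, was 8.67 to 37.2 FPKM in all samples and HPGD, which degrades the product, 1.08 to 3.79, while of the receptors PTGER2 was 1.59 to 4.83 FPKM in HS against 1.11 to 1.41 in NS (limma adjusted p = 0.103) and PTGER4 was 5.85 to 6.65 FPKM in HS and 6.33 to 15.8 in the other samples.

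**Figure D5:**
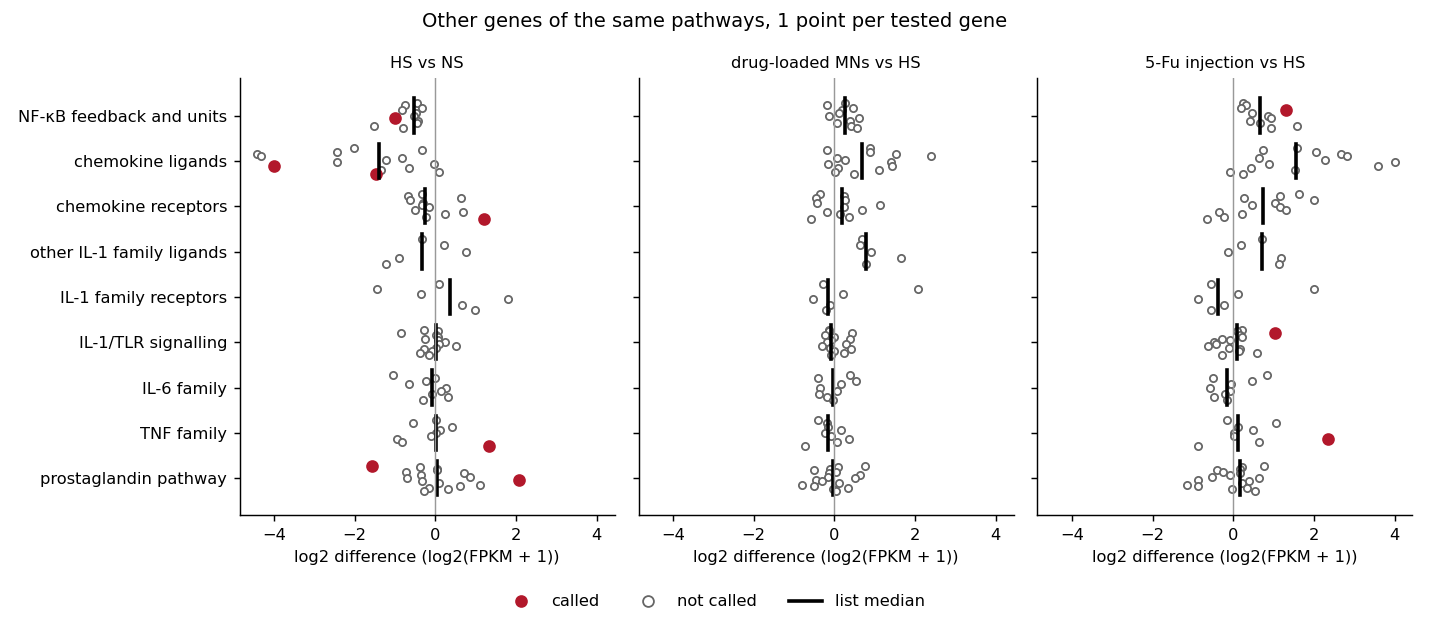
Differences of the tested pathway genes on the log2(FPKM + 1) scale, 1 point per gene, in 9 lists for 3 comparisons, with called genes filled and list medians as bars. The NF-κB list lies left of 0 for HS against NS (median -0.54) and right of 0 for 5-Fu injection against HS (median 0.67), 2 comparisons that share the HS samples.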

How the data were processed

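RNA from 12 samples (4 groups, 3 rabbits each) was purified with poly-T beads, prepared with a SMARTER kit and sequenced on an Illumina NovaSeq system. What the authors deposited is a single FPKM table (1 column per sample), with gene lengths in bases. Aligner, counter and genome build are not given in the sources used here. The study tested counts with DESeq2, which were not used here.

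Multiplied by gene length, 100% of the deposited FPKM values were whole multiples of 1 step per sample within a tolerance of 0.05, which gave reads per gene and showed that the library sizes were scaled rather than being totals (0.873 to 1.20 times the reads on genes). Here log2(FPKM + 1) was fitted with limma 3.58.1 in R 4.3.3, with 4 groups in 1 fit, trended variances and p-values adjusted by Benjamini-Hochberg over 13287 genes, those whose mean FPKM reached 1. A call needed an adjusted p below 0.05 and a log2 difference beyond 1. The fit was tested on simulated data. With 3 samples against 3, an exact permutation test of 1 gene cannot go below p = 0.1, so none is quoted.

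The genes and lists were chosen with earlier results of these data known. Named in the text are all members, pathway genes called in a comparison, their direct receptors, antagonists, enzymes and partners, and the 3 symbols with the highest r to each member. Of the listed genes, 73 without a symbol in the table were looked for by their exact protein names, after the table had been seen. Alternatives were other filters, a pseudocount of 0.1, other scalings, other fits, limma-voom on the recovered reads, and leaving out each sample. How reads shared by similar genes were assigned is not given.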

Additional observations from a re-analysis of the deposited data

How the results depend on the processing

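No member whose difference had an unadjusted p under 0.05 or groups that did not overlap changed direction in any alternative, and CCL20 in HS against NS was called in each of the 22 settings. The count of members called after drug-loaded MNs against NS went from 1 to 0 when only the 2 groups were fitted (CCL20 adjusted p = 0.0691) and with a replicate block (0.0621). When single samples were left out, the count of members called ran from 1 to 2 for HS against NS (2 without NS replicate 3), from 0 to 1 for 5-Fu injection against HS (1, IL1RN, without NS replicate 2), from 0 to 1 for drug-loaded MNs against NS, and from 0 to 1 for the test over all groups (0 without NS replicate 1). The cause was not tested. CCL20 in 5-Fu injection against NS was never called (adjusted p from 0.0666 to 0.34). Leaving out a sample also lowers the number of samples in the fit, and a mean FPKM of at least 5 left 3 members.

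Pathway calls moved more. The 7 calls in HS against NS became 21 after rescaling to the total of reads, 3 without the filter and 3 with limma-voom, and ran from 2 to 10 when single samples were left out. The 3 calls in 5-Fu injection against HS became 5 after rescaling and 0 with only the 2 groups fitted, and ran from 0 to 13 without single samples (13 without 5-Fu injection replicate 2). The 1 call in drug-loaded MNs against NS became 0 after rescaling, without the filter and with the replicate block. After rescaling, the median of all genes stood at -0.33 in HS against NS, -0.19 in drug-loaded MNs and in 5-Fu injection against NS, 0.11 in drug-loaded MNs against HS and 0.13 in 5-Fu injection against HS, against -0.02 to 0.02 before.

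The replicate numbers name different rabbits. Deviations of same-numbered samples correlated at -0.27 to 0.44, and in no comparison did all 3 pairs exceed 0.1, so the numbers were not taken as pairs. Apart from CCL20 above, the replicate block changed no count of members called. Among pathway genes it ended the calls of CCL19 (adjusted p = 0.0508), PTGS1 (0.0694) and NFKBIZ (0.089) in HS against NS, where the count stayed at 7 and IL6R was among those called (0.0385), of LTB (0.069) and IRAK2 (0.0565) in 5-Fu injection against HS, which left 1, and of IL36G (0.0503) in drug-loaded MNs against NS.

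TNF, IL1B and CCL20 rest on 4 to 28 reads in most scar samples, so counting error is large there, and 3 rabbits a group leave wide intervals. All animals were female, and p-values cover the spread between 3 animals at 1 time point.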

Other observations

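Other lists around these genes had few calls. Over all genes, 5% were called for HS against NS and 2.29% for 5-Fu injection against HS. An unadjusted p under 0.05 was reached by 3109 of 13287 genes in the former comparison and by 26% of them in the latter. The interleukin-1 and Toll-like receptor signalling list had 15 tested genes, with medians of 0.01 for HS against NS and 0.10 for 5-Fu injection against HS, where IRAK2 was its 1 call. For drug-loaded MNs against HS its median was -0.07, with 6 positive and 9 negative differences. By limma or limma-voom 0 were called there, 0 had an unadjusted p under 0.05 by limma (8.9% of all genes), and after rescaling to the total of reads 12 were positive. The 6 tested receptors of the interleukin-1 family had 0 calls by limma or limma-voom for HS against NS and for 5-Fu injection against HS. An unadjusted p under 0.05 was seen for 2 of them in the former and 1 in the latter. Of 4 tested inflammasome genes, 3 had positive differences for 5-Fu injection against HS (median 0.91), with 0 called by either tool and 2 with an unadjusted p under 0.05. The interleukin-6 family (9 tested) and the TNF list (9 tested) had medians of -0.07 and 0.00 for HS against NS. Chemokine receptors (12 tested) had a median of 0.75 for 5-Fu injection against HS, with 9 of 12 positive and 0 called by either tool, 3 of them with an unadjusted p under 0.05. The prostaglandin list (17 tested) had 9 positive and 8 negative differences for HS against NS. The interleukin-17 and epidermal list (8 tested) had 7 negative for HS against NS and 7 positive for 5-Fu injection against HS, comparisons that share the HS samples. In each, 0 were called by either tool and 1 had an unadjusted p under 0.05.

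Of the markers not given above, endothelial markers had summed FPKM of 291 to 377 in NS and 371 to 431 in HS. Mast cell markers were 6.9 to 10.3 in NS and 18.7 to 33.6 in HS, with CPA3 at 0 in every sample, and dendritic cell markers were highest in 5-Fu injection replicate 1, at 73.3. Cartilage markers ranged from 431 to 5276 over all samples, skeletal muscle markers from 5.2 to 73.7, and immediate-early genes from 252 to 457.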
